A study of Mus musculus with 6 samples.

Results

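Hypoxia and hypoxia-inducible factor (HIF) target genes were followed in mouse liver tumors with and without a nanogel that carries glucose oxidase (GOx) and doxorubicin (DOX). The set holds 36 genes named by symbol. They are the HIF alpha subunits, the oxygen-sensing enzymes Egln1 and Egln3, the HIF turnover gene Vhl and transcripts that HIF is known to induce. All 36 symbols matched 1 gene each among the 55536 genes counted, and 35 passed a filter on low counts that left 15374 genes in all. Hif3a was the member that did not pass.

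The study compared 3 untreated control tumors with 3 tumors given GOx-DOX-LGP, a nanogel of lipid, gelatin and protamine that holds the enzyme in the core and the drug in the shell. Each tumor grew from HCA-1 cells, a mouse hepatocellular carcinoma (HCC) line, injected under the liver capsule of male C3H mice (C3H/HeNCrNarl in the methods) aged 6 to 8 weeks. No genetic change is named for either group, and no arm with empty nanogel, GOx alone or DOX alone was sequenced here, so the parts of the treatment cannot be told apart. The labels put the intravenous doses on days 18, 19 and 20 and the transcriptome analysis on day 17 after 3 h of circulation, days that contradict each other, so the time between dosing and harvest is uncertain. The methods for RT-qPCR of tumor RNA place the harvest on the day after the last of these doses, and the methods for sequencing give no day. The libraries carry the numbers 5, 6 and 7 in the control group and 1, 2 and 5 in the treated group. Nothing in the labels says that each came from a separate mouse, and p-values measure only the spread between these libraries.

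HIF is a pair of proteins, an alpha subunit and ARNT, that binds short DNA motifs and raises transcription when oxygen is scarce. In oxygenated cells, prolyl hydroxylases of the EGLN family mark the alpha subunit for the VHL ubiquitin ligase, which leads to its destruction. HIF targets shift fuel use away from mitochondria, export acid, recruit vessels and remodel collagen, and several of them, EGLN3 among them, feed back on the pathway. Glucose oxidase uses oxygen and glucose to make gluconic acid and hydrogen peroxide, so oxygen-regulated genes are of interest in tumors that received it.

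The bases shown next are the upstream stretches that hold the HIF core motif in the 5 members with the largest fold change among those whose treated and control tumors did not overlap and whose upstream window holds that motif. They come from RefSeq (GRCm38.p6, a reference of another mouse strain than C3H), run 5' to 3' on the strand of the gene, and reach from 30 bases before the first core to 30 bases after the last within the 250 bases upstream of the RefSeq start. Capitals mark the core, which was searched as ACGTG or GCGTG on both strands and therefore also appears as CACGT or CACGC. The Car9 line covers chr4:43506996-43507025 on the plus strand and is limited to 30 bases, which GENCODE counts as first exon. The Adm line is chr7:110627537-110627637 on the plus strand, and the Ankrd37 line is chr8:45999851-46000100 on the minus strand, with 17 bases in a GENCODE exon. P4ha1 is shown for chr10:59323103-59323295 and P4ha2 for chr11:54100787-54100889, both on the plus strand.
Car9: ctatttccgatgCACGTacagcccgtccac
Adm: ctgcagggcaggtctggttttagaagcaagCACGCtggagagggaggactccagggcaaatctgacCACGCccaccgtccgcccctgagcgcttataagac
Ankrd37: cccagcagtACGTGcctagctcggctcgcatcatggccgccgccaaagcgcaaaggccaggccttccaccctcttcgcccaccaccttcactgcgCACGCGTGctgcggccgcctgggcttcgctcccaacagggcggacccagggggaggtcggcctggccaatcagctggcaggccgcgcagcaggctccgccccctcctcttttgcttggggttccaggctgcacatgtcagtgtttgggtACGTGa
P4ha1: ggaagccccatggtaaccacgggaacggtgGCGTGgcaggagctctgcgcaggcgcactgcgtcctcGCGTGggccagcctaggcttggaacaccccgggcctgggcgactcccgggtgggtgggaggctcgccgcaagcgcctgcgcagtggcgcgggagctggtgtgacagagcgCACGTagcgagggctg
P4ha2: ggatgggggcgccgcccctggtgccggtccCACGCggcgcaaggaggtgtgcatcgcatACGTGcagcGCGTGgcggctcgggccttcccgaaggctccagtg
Car9 held 1 core, Adm 2, P4ha1 and P4ha2 3 each, and Ankrd37 4, of which 2 share bases. Windows were found for 27 members, and 25 of them (92.6%) held at least 1 core in a window, against 41.5% of 27025 genes with a window. The core was in all 10 windowed members that separated the groups and were higher in treated tumors, and in 15 of the other 17, so its presence did not sort the members that separated from those that did not. These are letter matches only, with no binding data beside them. No window was matched for Epas1, Bnip3l, Angptl4, Plod2, Lox, Loxl2, Kdm4b, Bhlhe40 and Ndrg1.

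Library totals ran from 15529940 to 18401178 counts, and levels are given as counts scaled to library size and TMM factor (CPM), where 3 counts, taken as the least a library could show, came to 0.132 to 0.323 CPM by library. Such limits cover counting error only. The control libraries did not resemble one another. The 12 hepatocyte markers summed to 645 CPM in control 5 but to 124720 and 207690 CPM in controls 6 and 7, and to 3448, 1357 and 1865 CPM in treated tumors 1, 2 and 5. Controls 6 and 7 also had the lowest fibroblast and stellate cell marker sums (1799 and 1457 CPM, against 5880 CPM in control 5 and 2273 to 7087 CPM in treated tumors) and the lowest proliferation marker sums (248 and 35.8 CPM, against 597 to 854 CPM in the other 4 libraries). Within the fibroblast list, Dcn went the other way, with 447 and 515 CPM in controls 6 and 7 against 75.9 to 277 CPM elsewhere, and Lum (74.2 and 75.0 CPM) lay within the treated range. The tumors are labelled HCC, but of the markers of liver cancer Igf2 was at 0 in 3 libraries, Afp lay between 2.25 and 13.2 CPM with its highest values in controls 6 and 7, and H19 and Gpc3 were at most 2.29 CPM. In bulk tissue, fewer cells of a type and less RNA per cell cannot be told apart. Values are therefore given for each library, and control 5 is set apart from controls 6 and 7 where they differ.

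Most members were higher in GOx-DOX-LGP tumors than in control tumors, with Car9, Adm, Ankrd37, Ndrg1, P4ha1, P4ha2, Egln3, Egln1, Jmjd6, Fam162a and Mxi1 higher in each treated tumor than in each control tumor. Of the 35 members kept, 29 had a positive and 6 a negative log2 fold change, with a median of 0.73, where the median of all genes kept was 0.02. None of the 35 passed an adjusted p of 0.05 in edgeR's quasi-likelihood test, and neither did any of the 15374 genes (0%), with a smallest adjusted p of 0.247. At an unadjusted p under 0.05, edgeR gave 8 members higher (2.87% of all genes were) and 2 lower (14.6% of all genes were). DESeq2 on the same genes gave an adjusted p under 0.05 to Egln3 and Car9 among the higher genes (2 of 34 members with a value, beside 0.933% of all genes) and to Epas1 and Rora among the lower ones (2 of 34, beside 9.27%). The 11 members without overlap make up 31.4% of the 35, where 8.87% of all genes were higher in the same way, and 0 members were lower without overlap, beside 8.31% of all genes. For a single gene this separation has p = 0.1 in a two-sided exact permutation test, the smallest that 3 libraries against 3 can give.

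The count of members past the threshold turned on control 5. Without it, edgeR gave an adjusted p under 0.05 to 23 members, 19 higher and 4 lower, but also to 22.2% of all genes as higher and 25.5% as lower. The 4 lower members were Epas1, Rora, Pdk1 and Bnip3. Without controls 6 and 7 instead, with a single control library assumed to vary like the treated ones, 0 members passed and 7 had an unadjusted p under 0.05, all of them higher, beside 3.18% of all genes as higher. Leaving out another library left the adjusted count at 0 and the unadjusted count between 3 (without GOx-DOX-LGP tumor 1) and 7 (without control 7), of which 2 to 5 members were higher, beside 1.01% to 1.47% of all genes.

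**Figure D1:**
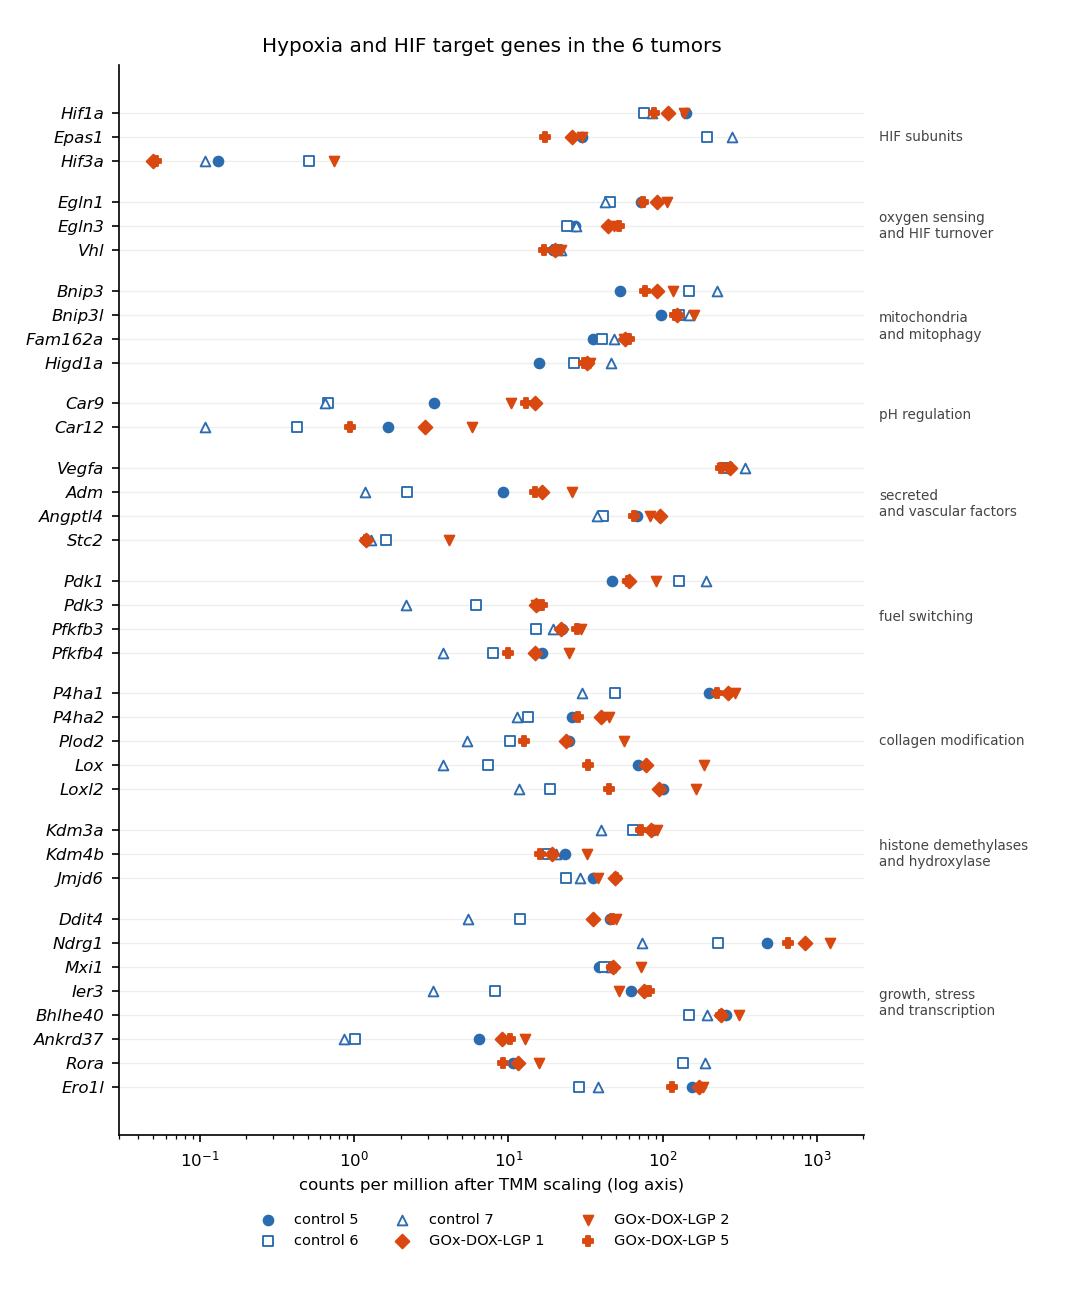
Level of each of the 36 members in each library, in CPM on a log axis, grouped by role; blue marks are control tumors (control 5 filled, controls 6 and 7 open) and orange marks GOx-DOX-LGP tumors. Egln3 and Car9 have all treated marks to the right of all control marks, while for Epas1 and Rora controls 6 and 7 stand alone on the right.

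Among the HIF subunits, neither Hif1a nor Epas1 separated the groups. Hif1a, the oxygen-labile alpha subunit found in most cells, stood at 142, 75.7 and 85.7 CPM in controls 5, 6 and 7 and at 108, 138 and 87.5 CPM in treated tumors 1, 2 and 5. Control 5 was the highest of the 6 and controls 6 and 7 the lowest, and the log2 fold change was 0.13 (SE 0.33, adjusted p = 0.819 in edgeR). HIF1A protein is set mainly by its destruction, which mRNA does not show. Epas1, the alpha subunit known from endothelium and hepatocytes, was at 30.0, 193 and 282 CPM in controls 5, 6 and 7 and at 25.8, 30.1 and 17.4 CPM in treated tumors 1, 2 and 5. Its lower level in the treated group (log2 fold change -2.79, SE 0.79, adjusted p = 0.247 in edgeR and 0.00859 in DESeq2) came from controls 6 and 7, since control 5 lay within the treated range. With the mean hepatocyte marker level as a covariate the estimate was -0.95 (SE 0.32, unadjusted p = 0.0183 in edgeR). Against control 5 alone it was -0.28. Endothelial markers summed to 163, 316 and 356 CPM in controls 5, 6 and 7 and to 113 to 150 CPM in treated tumors. Of the 8 markers, 6 were lower without overlap, beside 8.31% of all genes, and Emcn went the other way (log2 fold change 0.24, SE 0.33). The part of either cell type in the Epas1 values was not tested. Hif3a, a subunit with forms that oppose the others, had 3, 6 and 1 counts in controls 5, 6 and 7 and 1, 15 and 1 in treated tumors 1, 2 and 5, at or below 3 counts in 4 of the 6 libraries, and no fold change is given.

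The oxygen-sensing enzymes held the member with the smallest SE of the set. Egln3, a prolyl hydroxylase that HIF itself induces, lies at chr12:54178981-54203860 on GRCm38 (ENSMUSG00000035105). Its level was 27.1, 23.8 and 27.3 CPM in controls 5, 6 and 7, against 43.9, 48.4 and 52.1 CPM in treated tumors 1, 2 and 5. All 3 controls, control 5 with them, lay close together and below every treated tumor. The means were 26.1 ± 1.95 and 48.1 ± 4.13 CPM (SD, n = 3 each), with a log2 fold change of 0.88 (SE 0.18, adjusted p = 0.247 in edgeR and 0.000744 in DESeq2). Over all other settings tried, the estimate stayed between 0.82 and 1.40, and the hepatocyte covariate left it at 0.84. Egln1, the hydroxylase that sets HIF turnover in most cells, was at 72.6, 45.7 and 42.5 CPM in controls 5, 6 and 7 and at 91.6, 106 and 75.0 CPM in treated tumors 1, 2 and 5. The groups did not overlap, although control 5 came within a few CPM of treated tumor 5 (log2 fold change 0.76, SE 0.29, adjusted p = 0.260 in edgeR, and 0.34 against control 5 alone). Vhl, the ubiquitin ligase subunit that binds the hydroxylated alpha subunit, was at 19.4, 20.5 and 21.8 CPM in controls 5, 6 and 7 and at 20.0, 21.9 and 17.1 CPM in treated tumors 1, 2 and 5. Its groups overlapped throughout, with a log2 fold change of -0.06 (SE 0.20). Egln2 and Hif1an, oxygen-sensing hydroxylases outside the set, ran the other way. Egln2 stood at 25.1, 53.85 and 62.0 CPM in controls 5, 6 and 7, against 25.2 to 28.8 CPM in treated tumors. Its log2 fold change was -0.80 (SE 0.35), with control 5 just below the treated range. Hif1an was lower in each treated tumor than in each control tumor (log2 fold change -0.34, SE 0.19).

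Among the 4 mitochondrial members, Fam162a separated the groups. Fam162a, a mitochondrial protein induced by HIF, was at 35.2, 40.3 and 48.0 CPM in controls 5, 6 and 7 and at 56.7, 56.4 and 60.3 CPM in treated tumors 1, 2 and 5. Control 5 was the lowest here, and the log2 fold change was 0.49 (SE 0.19, unadjusted p = 0.0442, adjusted p = 0.275 in edgeR). Exons of Wdr5b on the other strand cover 19.8% of its exonic bases, and since the use of strand in counting is not given, a part of these counts is uncertain. Bnip3, a receptor for mitophagy, was at 52.8, 149 and 225 CPM in controls 5, 6 and 7 and at 91.3, 116 and 77.3 CPM in treated tumors 1, 2 and 5. The treated tumors lay between control 5, below them, and controls 6 and 7, above them, so the log2 fold change of -0.58 (SE 0.52) averages both sides. It was -0.95 without control 5 and 0.86 without controls 6 and 7. An antisense gene overlaps 22.3% of the Bnip3 exons, and 16.5% of its 50-base stretches also occur in other genes. Bnip3l, its relative with the same function, showed a log2 fold change of 0.12 (SE 0.25), and 20.8% of its stretches are shared, mostly with a pseudogene. Higd1a, an inner membrane protein of the respiratory chain, was lower in control 5 (15.9 CPM) than in any treated tumor (30.7 to 34.0 CPM), and controls 6 and 7 were at 26.5 and 46.2 CPM. An antisense gene overlaps 22.5% of its exons, and 5.02% of its stretches are shared with other genes.

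Among the higher members, the largest log2 fold changes included both of those that regulate pH. Car9 encodes carbonic anhydrase IX, a surface enzyme that helps cells to export acid and serves as a hypoxia marker, and lies at chr4:43506966-43513729 (ENSMUSG00000028463). Its counts were 75, 8 and 6 in controls 5, 6 and 7 and 301, 213 and 250 in treated tumors 1, 2 and 5, which is 3.29, 0.678 and 0.646 CPM against 14.9, 10.4 and 13.0 CPM. Control 5 was above controls 6 and 7 and still below all treated tumors. The log2 fold change was 2.99 (SE 0.71, unadjusted p = 0.00512, adjusted p = 0.247 in edgeR and 0.00135 in DESeq2), 2.53 with the hepatocyte covariate, 4.28 without control 5 and 1.97 against control 5 alone. An antisense gene covers 9.29% of its exons. Car12, the second surface carbonic anhydrase, had 38, 5 and 1 counts in controls 5, 6 and 7 and 58, 118 and 18 in treated tumors 1, 2 and 5. Here the groups overlapped, with control 5 between treated tumors 5 and 1 (log2 fold change 2.0, SE 0.99).

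Of the secreted members, Adm separated the groups and Vegfa did not. Adm, the vasodilator peptide adrenomedullin (chr7:110627661-110629820), was at 9.26, 2.20 and 1.18 CPM in controls 5, 6 and 7 and at 16.4, 25.8 and 14.9 CPM in treated tumors 1, 2 and 5. Control 5 was again the nearest to the treated tumors, and the log2 fold change was 2.15 (SE 0.77, unadjusted p = 0.0316, adjusted p = 0.252 in edgeR), 3.49 without control 5 and 1.05 against control 5 alone. Vegfa, the main growth factor for vessels, was at 265, 262 and 340 CPM in controls 5, 6 and 7 and at 272, 244 and 238 CPM in treated tumors 1, 2 and 5. Controls 5 and 6 lay within the treated range (log2 fold change -0.20, SE 0.25, adjusted p = 0.651), and scaling by library totals, which moved the median of all genes to 0.51, put its log2 fold change at 0.37. Angptl4, an inhibitor of lipoprotein lipase, had a log2 fold change of 0.73 (SE 0.31) and just overlapped, with 68.5 CPM in control 5 and 65.3 CPM in treated tumor 5. Stc2, a stanniocalcin of the secretory pathway, lay between 1.18 and 1.61 CPM in 5 of the libraries and at 4.12 CPM in treated tumor 2, and without that tumor its log2 fold change went from 0.67 (SE 0.59) to -0.17.

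None of the 4 fuel-switching members separated the groups. Pdk3, a kinase that blocks pyruvate dehydrogenase, had the largest difference, with 15.5, 6.19 and 2.15 CPM in controls 5, 6 and 7, against 15.1, 15.1 and 16.6 CPM in treated tumors 1, 2 and 5. Control 5 was level with the treated tumors, and controls 6 and 7 alone were low (log2 fold change 0.96, SE 0.66). Pdk1, a kinase with the same target, was at 46.6, 128 and 191 CPM in controls 5, 6 and 7 and at 59.8 to 90.7 CPM in treated tumors. As with Bnip3, control 5 lay below and controls 6 and 7 above the treated range (log2 fold change -0.79, SE 0.52). Pfkfb3 and Pfkfb4, which make the activator of phosphofructokinase, had log2 fold changes of 0.47 (SE 0.24) and 0.80 (SE 0.60), with control 5 inside the treated range for both.

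All 5 collagen-modifying members had positive log2 fold changes, from 1.16 to 1.87, and P4ha1 and P4ha2 separated the groups. These 2 genes encode catalytic subunits of collagen prolyl hydroxylase. P4ha1 was at 201, 48.8 and 29.9 CPM in controls 5, 6 and 7 and at 264, 293 and 225 CPM in treated tumors 1, 2 and 5, with control 5 just under the treated tumors (log2 fold change 1.48, SE 0.73, unadjusted p = 0.0856 in edgeR). Its estimate was 2.76 without control 5 and 0.39 against control 5 alone. P4ha2 was at 25.8, 13.3 and 11.4 CPM in controls 5, 6 and 7 and at 40.1, 44.9 and 28.4 CPM in treated tumors 1, 2 and 5, in the same order (log2 fold change 1.16, SE 0.38, unadjusted p = 0.0213 in edgeR), and its estimate was 1.64 without control 5 and 0.57 against control 5 alone. Lox, the oxidase that starts collagen crosslinks, was at 69.5, 7.38 and 3.77 CPM in controls 5, 6 and 7 and at 78.3, 185 and 33.0 CPM in treated tumors 1, 2 and 5. It had the largest log2 fold change of the group, 1.87, and also the largest SE, 1.21, with a wide spread within both groups. Control 5 fell between treated tumors 5 and 1. Plod2, a lysyl hydroxylase, and Loxl2, a related oxidase, also had control 5 within the treated range and controls 6 and 7 below it, with log2 fold changes of 1.18 (SE 0.74) and 1.21 (SE 0.91), and 45.0% of the Loxl2 stretches also occur in other genes. The sum of the 8 fibroblast and stellate cell markers was 4727, 7087 and 2273 CPM in treated tumors 1, 2 and 5, the same order as in all 5 of these members. That order was not particular to them, since tumor 2 was the highest treated tumor for 27 of the 35 members kept and tumor 5 the lowest for 25. The fibroblast sum was also low in controls 6 and 7, where all 5 of these members were low. It is carried by the collagen genes Col1a1, Col1a2 and Col3a1, and Dcn and Lum on the same list were not low in controls 6 and 7. The part of these cells in the values was not tested.

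**Figure D2:**
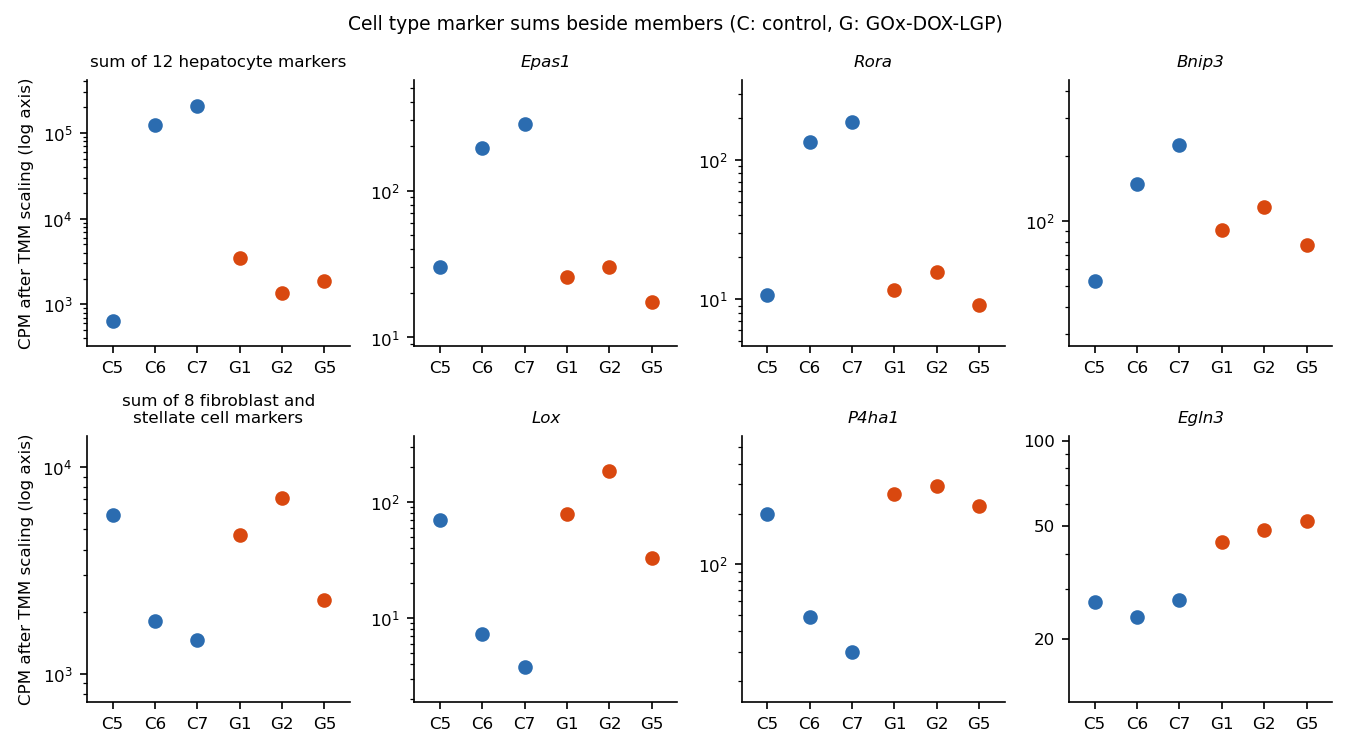
Sums of hepatocyte and of fibroblast and stellate cell markers beside 6 members, in CPM on log axes, with 1 point per library (C5 to C7 control, G1 to G5 GOx-DOX-LGP). Epas1 and Rora share the high points of the hepatocyte sum in controls 6 and 7. All members shown but Egln3 share the order of the fibroblast sum among treated tumors, and Egln3 shows neither pattern.

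Of the 3 chromatin and hydroxylase members, Jmjd6 separated the groups. Jmjd6, a jumonji-domain hydroxylase of nuclear proteins, was at 35.2, 23.7 and 29.1 CPM in controls 5, 6 and 7 and at 49.2, 38.2 and 49.8 CPM in treated tumors 1, 2 and 5. Control 5, the highest control, was just under tumor 2, the lowest treated tumor, and the log2 fold change was 0.64 (SE 0.23, unadjusted p = 0.0321, adjusted p = 0.252 in edgeR). Kdm3a and Kdm4b, histone demethylases that themselves need oxygen, had log2 fold changes of 0.37 (SE 0.32) and 0.13 (SE 0.32). Control 5 lay within the treated range for both.

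Among the 8 members of growth control, stress and transcription, Ndrg1, Ankrd37 and Mxi1 were higher without overlap. Ndrg1, a stress-induced gene widely used as a hypoxia marker (chr15:66929318-66969640), was at 471, 230 and 73.4 CPM in controls 5, 6 and 7 and at 833, 1216 and 646 CPM in treated tumors 1, 2 and 5. All control tumors lay below the treated ones, and the log2 fold change was 1.80 (SE 0.71, unadjusted p = 0.0426, adjusted p = 0.272 in edgeR), 2.60 without control 5 and 0.95 against control 5 alone. Ankrd37, an ankyrin-repeat protein induced by HIF, was at 6.41, 1.02 and 0.861 CPM in controls 5, 6 and 7 and at 9.09, 12.7 and 10.3 CPM in treated tumors 1, 2 and 5. This gave a log2 fold change of 1.91 (SE 0.81, unadjusted p = 0.0545 in edgeR), which was 3.52 without control 5 and 0.75 against control 5 alone, and genes on the other strand cover 26.4% of its exons. The levels of Ankrd37 in controls 6 and 7 rest on 12 and 8 counts, so the size of the estimate without control 5 is uncertain. Mxi1, an antagonist of MYC, was at 38.7, 41.6 and 46.0 CPM in controls 5, 6 and 7 and at 47.8, 72.2 and 46.6 CPM in treated tumors 1, 2 and 5. Its separation was narrow, with control 7 just under treated tumor 5 (log2 fold change 0.40, SE 0.24, unadjusted p = 0.146 in edgeR).

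Rora, a nuclear receptor of liver and clock genes, had the largest difference in this group and ran the other way. Its level was 10.7, 135 and 188 CPM in controls 5, 6 and 7, against 11.6, 15.8 and 9.16 CPM in treated tumors 1, 2 and 5. Control 5 lay within the treated range, and the log2 fold change of -3.19 (SE 0.97, adjusted p = 0.247 in edgeR and 0.00964 in DESeq2) was -0.67 (SE 0.37) with the hepatocyte covariate and 0.21 against control 5 alone. Ddit4, an inhibitor of mTORC1, Ier3, an early response gene, and Ero1l, the oxidase of disulfide bonds in the endoplasmic reticulum, had log2 fold changes of 1.07 (SE 0.74), 1.49 (SE 1.03) and 1.08 (SE 0.68). For all 3, controls 6 and 7 lay below the treated tumors and control 5 within them. Bhlhe40, a transcriptional repressor, had a log2 fold change of 0.39 (SE 0.31) with the same order.

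**Figure D3:**
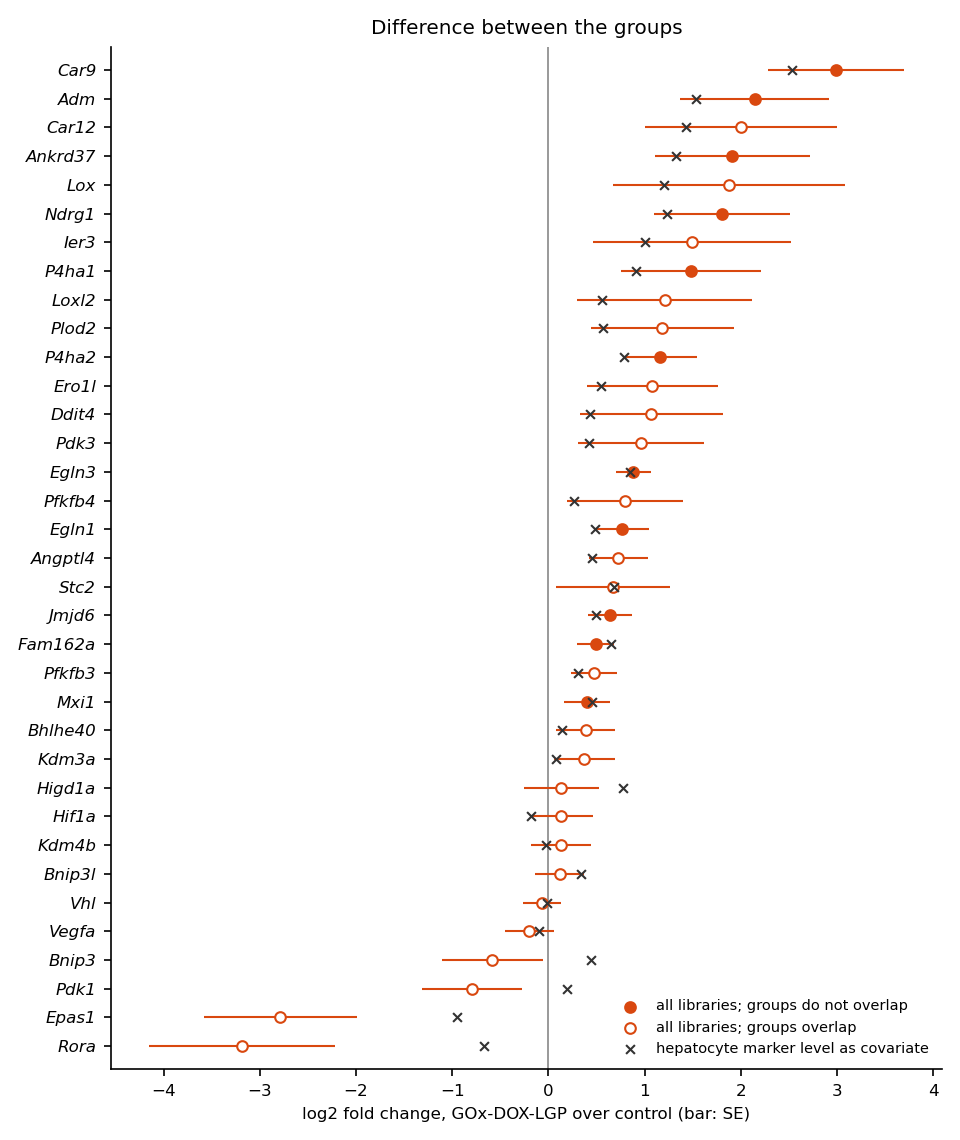
Log2 fold change of GOx-DOX-LGP over control for the 35 members kept, with bars of 1 SE; filled points are members whose groups did not overlap, and crosses give the estimate with the hepatocyte marker level as a covariate. The crosses for Epas1 (-0.95) and Rora (-0.67) lie much nearer to 0 than the points, while that for Egln3 (0.84) stays close and that for Car9 (2.53) lies within its bar. Crosses of other higher members, such as P4ha1 (0.91) and Ddit4 (0.44), also lie nearer to 0, and those for Higd1a (0.78) and Fam162a (0.65) lie farther from it.

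Setting each control beside the treated range shows how the members divide. Control 5 lay below all treated tumors for 16 members, within their range for 18 and above for 1 (Hif1a). Control 6 lay below for 26 and above for 4, where 41.2% of all genes were below and 38.6% above. Control 7 lay below for 25 and above for 6, where 44.8% of all genes were below and 40.1% above. For 14 members controls 6 and 7 were below while control 5 was not, a pattern shown by 28.3% of all genes. For 4 members, Epas1, Rora, Bnip3 and Pdk1, controls 6 and 7 were above while control 5 was not, as for 26.4% of all genes. In all genes, control 5 lay below the treated range for 26% and above it for 28.4%, near balance, where the members had 16 below and 1 above. With the hepatocyte marker level as a covariate, which leaves 3 residual degrees of freedom, edgeR gave an unadjusted p under 0.05 to 10 members as higher (2.32% of all genes) and to 1 as lower (4.4% of all genes), and to none after adjustment. The 10 were Egln3, Fam162a, Higd1a, Car9, Adm, P4ha1, P4ha2, Ndrg1, Ier3 and Ankrd37, and the 1 was Epas1.

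**Figure D4:**
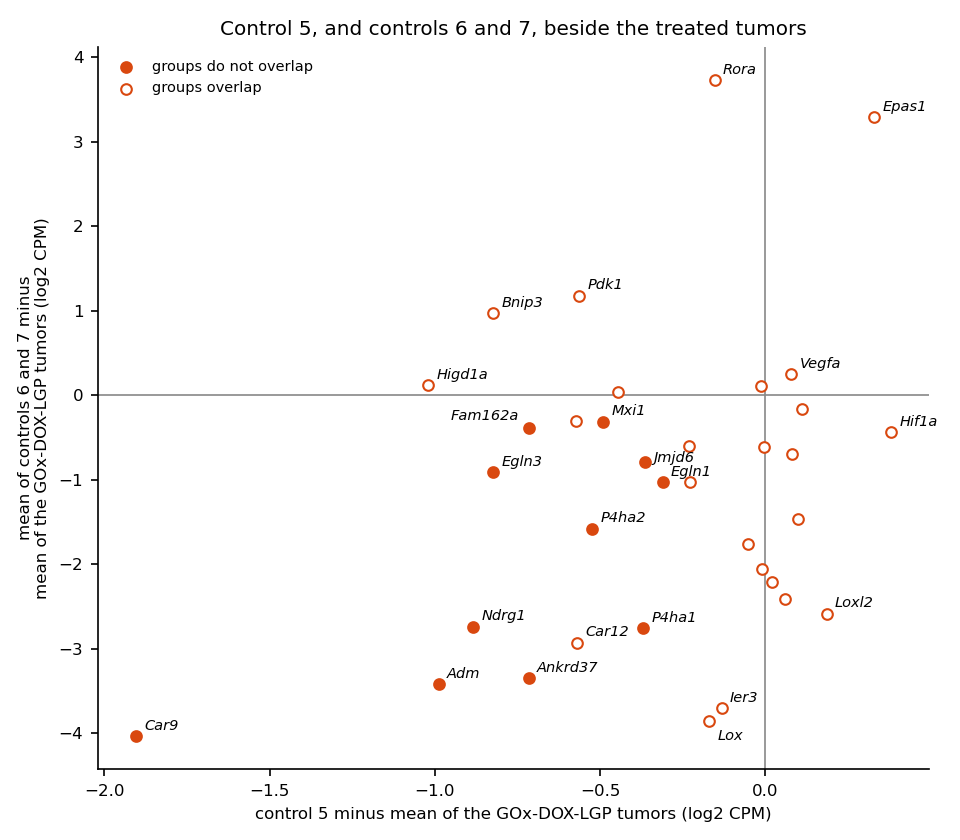
Each of the 35 members by its log2 CPM difference from the mean of the treated tumors, for control 5 on the horizontal axis and for the mean of controls 6 and 7 on the vertical axis, with scales that differ. Members whose groups did not overlap (filled) sit at the lower left, with Car9 farthest out at -1.91 and -4.04, while Epas1 and Rora stand at the top near 0 on the horizontal axis.

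The treated tumors also differed from one another. GOx-DOX-LGP tumor 2 had the highest level of the 3 for 27 of the 35 members (77.1%), against 38.5% of all genes, and tumor 5 the lowest for 25 (71.4%), against 35.1%. The largest ratios of highest to lowest treated tumor were in Lox (33.0 to 185 CPM), Car12 (0.937 to 5.78 CPM) and Plod2 (12.7 to 56.0 CPM). The members not highest in tumor 2 were Egln3, Fam162a, Car9, Vegfa, Angptl4, Pdk3, Jmjd6 and Ier3, and Egln3 was highest in tumor 5 (52.1 CPM). Macrophage marker sums were 963, 2756 and 1270 CPM in treated tumors 1, 2 and 5, and T cell marker sums 103, 106 and 148 CPM. Most of the macrophage sum came from Lyz2 (739, 2262 and 989 CPM). Clec4f and Marco on that list were not highest in tumor 2, and the rest of the list was. The T cell sums also moved with the groups, at 74.3, 46.7 and 25.5 CPM in controls 5, 6 and 7. Of the 6 T cell markers, 5 were higher in treated tumors without overlap, beside 8.87% of all genes. The part of either cell type in the values of the members was not tested.

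Other genes of the pathway outside the set, 48 of them, were counted in the same fit. Of the 47 that passed the filter, 35 had a positive and 12 a negative log2 fold change (median 0.56), 16 were higher and 3 lower without overlap, and 5 were higher and 5 lower at an unadjusted p under 0.05 in edgeR, none after adjustment. The shares of all genes were 51.1% positive and 48.9% negative, 8.87% and 8.31% without overlap, and 2.87% and 14.6% at that p. The largest positive values were those of Nos2, the inducible nitric oxide synthase (log2 fold change 2.88, SE 1.09), and of Slc16a3, a lactate exporter (2.09, SE 0.89), both without overlap. Nos2 was at 3.47, 0.254 and 0.215 CPM in controls 5, 6 and 7, against 7.41, 16.7 and 6.92 CPM in treated tumors 1, 2 and 5. Its levels in controls 6 and 7 rest on 3 and 2 counts and are not resolved, so the size of its fold change is uncertain. The largest negative values were those of Ppp1r3c, a glycogen-targeting subunit (-4.87, SE 1.67), and Trf, the transferrin made by hepatocytes (-4.23, SE 1.39). For both, controls 6 and 7 were high (81.2 and 123 CPM for Ppp1r3c) and control 5 was below the treated tumors (0.658 CPM, against 0.989 to 4.56 CPM).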

How the data were processed

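RNA from 3 control and 3 GOx-DOX-LGP tumors was sequenced. The authors deposited raw counts of 55536 genes, and signal values for 34685 genes, which are those counts divided by a size factor per library. The supporting text names TopHat and HTSeq, whereas the submitters' processing notes list Trimmomatic 0.38, HISAT2 2.1.0 and featureCounts 2.0.0. Build, annotation and use of strand are not given in the sources used here. Gene symbols were read from the signal table, and positions from GENCODE M21 on GRCm38.

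Counts were filtered with filterByExpr, scaled with TMM (factors 0.5695 to 1.241) and tested over all 15374 genes with edgeR 4.0.16 (R 4.3.3, quasi-likelihood test, Benjamini-Hochberg, threshold 0.05). SE is the absolute log2 fold change divided by the root of F, and log2 CPM used a prior count of 2. Steps were tested on simulated data. Members and lists were chosen with earlier results of these data known. Values per library are given for HIF subunits, sensors, members without overlap and the largest change per role. Of the other pathway genes, the 2 largest in each direction and the sensors Egln2 and Hif1an are named.

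Alternatives were DESeq2 1.42.0, limma 3.58.1 voom with quality weights per library, scaling by library totals, by upper quartile or by the size factors of DESeq2, no filter or at least 10 counts in every library, the hepatocyte covariate and leaving out libraries. Figures used matplotlib 3.10.9.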

Additional observations from a re-analysis of the deposited data

How the results depend on the processing

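Levels near 3 counts (Hif3a, Car12 in control 7, and Nos2 in controls 6 and 7) are not resolved at this depth. The number of genes past the adjusted threshold was 1498 with DESeq2 and 9254 with voom, and 0 to 7745 when each library was left out, where 7745 is the value without control 5. Members past it numbered 4 with DESeq2, 27 with voom (23 higher and 4 lower, beside 29.2% and 30.9% of all genes) and 0 to 23 when each library was left out. Members at an unadjusted p under 0.05 numbered 28 with voom (24 higher, beside 31.8% of all genes) and 3 to 27 when each library was left out, where 27 is the value without control 5 (23 higher, beside 27.2% of all genes). Members without overlap numbered 11 to 29 in that series, with 29 without control 5 (25 higher and 4 lower, beside 36.8% and 35.3% of all genes). Without controls 6 and 7 together they numbered 17 of 36 fitted (16 higher and 1 lower, beside 27.5% and 26.7% of all genes). Scaling by library totals moved the median of the members to 1.12 and that of all genes to 0.51, and upper quartile scaling moved that of all genes to 0.19. The median of the members fell to 0.37 without controls 6 and 7, 0.48 with the hepatocyte covariate and 0.53 without GOx-DOX-LGP tumor 2. It was 0.94 without control 5. Of the 35 members, 23 kept the sign of their log2 fold change in every setting, and 12 changed it in at least 1. A kept sign was not always a kept difference. Among the 23, the lowest estimate was 0.01 for Pfkfb4, 0.02 for Loxl2 and Pdk3, and 0.03 for Ero1l and Bhlhe40. Without controls 6 and 7, the log2 fold change was -0.34 for Hif1a, 0.04 for Vhl, 0.86 for Bnip3, 0.61 for Pdk1, -0.06 for Kdm3a, -0.03 for Kdm4b, -0.03 for Ddit4 and 0.21 for Rora. With the hepatocyte covariate it was -0.18 for Hif1a, 0.44 for Bnip3, 0.20 for Pdk1 and -0.02 for Kdm4b. With library totals it was 0.48 for Vhl, 0.19 for Bnip3 and 0.37 for Vegfa, with upper quartile scaling 0.12 for Vhl, and without a filter 0.01 for Vhl. Voom gave -0.02 for Bnip3l and -0.18 for Stc2. When each library was left out, the range was -0.04 to 0.49 for Hif1a, -0.13 to 0.07 for Vhl, -0.13 to 0.61 for Higd1a, -0.17 to 1.00 for Stc2 and -0.20 to 0.37 for Kdm4b. Apart from what each alternative leaves out, the cause was not tested. No paired analysis was possible because the groups share only the number 5, which the labels do not tie to a common mouse or day.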
